A study of Mus musculus with 11 samples.

Results

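The mineralocorticoid and glucocorticoid receptors and a set of genes that respond to glucocorticoids were followed across RNA sequencing libraries of corpus callosum, the white matter that links the left and right brain, and of neurospheres, balls of cultured neural stem and progenitor cells. The set is a list of symbols chosen with earlier results of these data known. It holds 10 of the 24411 genes counted: Nr3c1, Nr3c2, Fkbp5, Sgk1, Tsc22d3, Zbtb16, Ddit4, Pdk4, Mt1 and Mt2. All 10 had counts in every library. The groups were callosum from Bmal1-/- mice (BKO callosum, n = 2), callosum from wild-type mice (n = 3), neurospheres from Bmal1-/- mice (BKO neurospheres, n = 3) and neurospheres from wild-type mice (n = 3). All mice were 8 to 10 weeks old. Neurospheres were grown from mechanically dissociated subventricular zone, the germinal layer beside the lateral ventricles, for 1 week, in a medium for expansion to which EGF (20 ng/ml) and heparin (2 ug/ml) were added. Bmal1, listed as Arntl, encodes the partner of CLOCK in the circadian clock. How its allele was made, the strain, and the time of day of collection are not given in the sources used here, and the labels leave unsaid if each library is a different animal or culture. The p-values therefore measure only how these libraries vary, and that variation may be technical.

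Glucocorticoids are adrenal steroids whose level in blood follows a daily rhythm and rises in stress. In the cell they bind a pair of receptors of the nuclear receptor family, the glucocorticoid receptor encoded by Nr3c1 and the mineralocorticoid receptor encoded by Nr3c2, which binds corticosterone with the higher affinity. The bound receptor enters the nucleus and acts on DNA at response elements made of facing hexamers. Fkbp5 encodes a co-chaperone that lowers the receptor's affinity for hormone and is itself induced by it, which closes a feedback loop. Sgk1 encodes a kinase that acts on channels and transporters, Tsc22d3 the leucine zipper protein GILZ that restrains inflammatory transcription, and Zbtb16 the zinc finger repressor PLZF. Ddit4 encodes REDD1, a brake on the mTORC1 kinase complex that hypoxia also induces, and Pdk4 a kinase that shuts pyruvate dehydrogenase when fat is burned. Mt1 and Mt2 encode metallothioneins, small proteins that bind zinc and copper and are induced by metal through the factor MTF1 as well as by glucocorticoid.

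Positions are those of GRCm38.p6, the assembly also known as mm10. Only Mt1 (chr8:94178883-94180327) and Mt2 (chr8:94172618-94173567) are close neighbours. The others include Nr3c2 (chr8:76898083-77245012), Fkbp5 (chr17:28398753-28486149), Sgk1 (chr10:21882184-21999903), Tsc22d3 (chrX:140539528-140600522), Zbtb16 (chr9:48651797-48836225), Ddit4 (chr10:59949675-59951770) and Pdk4 (chr6:5483351-5496278). Counting ignored strand, and 45.5% of the 50-base stretches of Mt2 also occur in Gm45774, a gene of the opposite strand, so reads of the pair cannot be told apart. Gm10649 likewise overlaps Nr3c2, with 2.54% of its stretches shared.

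Promoter sequence, taken as the 250 bases before a start annotated by RefSeq (GRCm38.p6), was matched for 8 of the 10 genes, in 15 windows. Nr3c1 and Zbtb16 are named only. Each window was searched on both strands for a full glucocorticoid response element written GNACANNNTGTNC, its hexamer AGAACA, the E-box CACGTG to which CLOCK and BMAL1 bind, and the metal response element as TGCACNC or TGCGCNC. The full element occurred in 0.387% of 32851 mouse promoters, the hexamer in 16.1%, the E-box in 6.02% and the metal response element in 21.4%. A match to the full element was found for 2 of the 8 genes, Sgk1 and Mt1. The hexamer was found for Sgk1 and Tsc22d3, the E-box for Fkbp5 and Sgk1, and the metal response element for Nr3c2, Ddit4, Mt1 and Mt2. These matches describe letters in a window and were not tested as binding sites. Of the 6 windows of Sgk1, the one shown (chr10:21993640-21993889, plus strand) holds the full element, with letters GAACAGAATGTTC beginning 188 bases before the start. It overlaps a hexamer at each end, another hexamer lies upstream, and that one overlaps an E-box. The windows of Mt1 (chr8:94178839-94179088, plus strand) and Mt2 (chr8:94172368-94172617, plus strand) are shown because the pair is read together below, and that of Fkbp5 (chr17:28486150-28486399, minus strand) for its E-box, 169 bases before the start. The window of Fam107a (chr14:8309778-8310027, minus strand) is added because this response gene fell in BKO callosum, as described below, and because it was the only one of the 5 pathway genes called there with a match to the full element. The windows of Hif3a, Cdkn1a, Hsd11b1 and Slc39a10 held 0 matches to it. Capitals mark full elements and hexamers in Sgk1 and Fam107a, the full element and the metal response element in Mt1, metal response elements in Mt2 and the E-box in Fkbp5.
Sgk1: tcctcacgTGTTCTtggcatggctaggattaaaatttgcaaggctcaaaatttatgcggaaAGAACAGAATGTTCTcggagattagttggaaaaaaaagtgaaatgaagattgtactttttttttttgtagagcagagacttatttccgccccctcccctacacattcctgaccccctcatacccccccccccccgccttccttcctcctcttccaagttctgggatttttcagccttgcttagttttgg
Mt1: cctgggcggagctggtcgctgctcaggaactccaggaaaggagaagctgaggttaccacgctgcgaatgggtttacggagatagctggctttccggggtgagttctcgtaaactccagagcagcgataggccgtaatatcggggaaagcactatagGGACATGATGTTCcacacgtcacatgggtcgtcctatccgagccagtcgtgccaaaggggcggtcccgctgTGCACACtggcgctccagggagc
Mt2: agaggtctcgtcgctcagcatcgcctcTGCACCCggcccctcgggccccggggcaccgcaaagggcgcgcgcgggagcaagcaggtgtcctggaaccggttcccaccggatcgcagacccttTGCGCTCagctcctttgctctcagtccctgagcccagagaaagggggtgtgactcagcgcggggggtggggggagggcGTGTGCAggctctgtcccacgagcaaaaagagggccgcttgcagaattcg
Fkbp5: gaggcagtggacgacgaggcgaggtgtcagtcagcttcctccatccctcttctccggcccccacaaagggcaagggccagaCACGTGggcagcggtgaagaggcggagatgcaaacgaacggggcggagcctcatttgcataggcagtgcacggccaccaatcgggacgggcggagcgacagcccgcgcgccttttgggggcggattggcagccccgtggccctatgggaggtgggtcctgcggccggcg
Fam107a: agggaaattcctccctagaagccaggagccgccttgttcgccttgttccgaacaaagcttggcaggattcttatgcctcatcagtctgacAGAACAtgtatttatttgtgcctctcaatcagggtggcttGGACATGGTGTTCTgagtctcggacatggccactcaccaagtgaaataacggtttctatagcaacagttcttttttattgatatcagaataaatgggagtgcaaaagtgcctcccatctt

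Set side by side, the full elements read GGACATGATGTTC in Mt1, beginning 94 bases before the start, and GGACATGGTGTTC in Fam107a, beginning 120 bases before it. Mt2 has 3 metal response elements in its window and Mt1 has 1. The window of Mt1 runs mostly inside the annotated gene, before a start within it, whereas that of Mt2 ends just before its gene. The 2 counts are thus of unlike positions. The windows of Hsd11b1 and Nr3c2 also lie inside their genes. Gene counts do not say which start of Sgk1, Fam107a, Mt1, Hsd11b1 or Nr3c2 was in use.

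Gene counts summed to between 17450270 and 19717848 per library. Arntl did not differ in counts between the genotypes, at a log2 fold change of 0.03 ± 0.14 (SE) in callosum and -0.01 ± 0.17 in neurospheres, so its whole-gene count is no check of the genotype labels. The labelled sources matched their markers. Summed CPM (counts scaled for library size, comparable between libraries) of 11 stem and progenitor genes were 228 to 365 in callosum and 4543 to 7166 in neurospheres, and those of 12 mature oligodendrocyte genes 22614 to 35241 CPM in callosum and 1509 to 2577 CPM in neurospheres. Callosum libraries also held neuronal RNA, with 10 neuronal markers summing to 19339 to 26798 CPM, against 266 to 341 CPM in neurospheres. Unmapped reads took 7.77% to 8.46% in callosum and 13.7% to 22.6% in neurospheres, with no overlap, so read quality and source cannot be told apart. BKO neurosphere replicate 1 stood apart with the highest unmapped share and values that varied with transcript length. Fold changes of the 10 genes that rest on it are given with and without it.

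**Figure D1:**
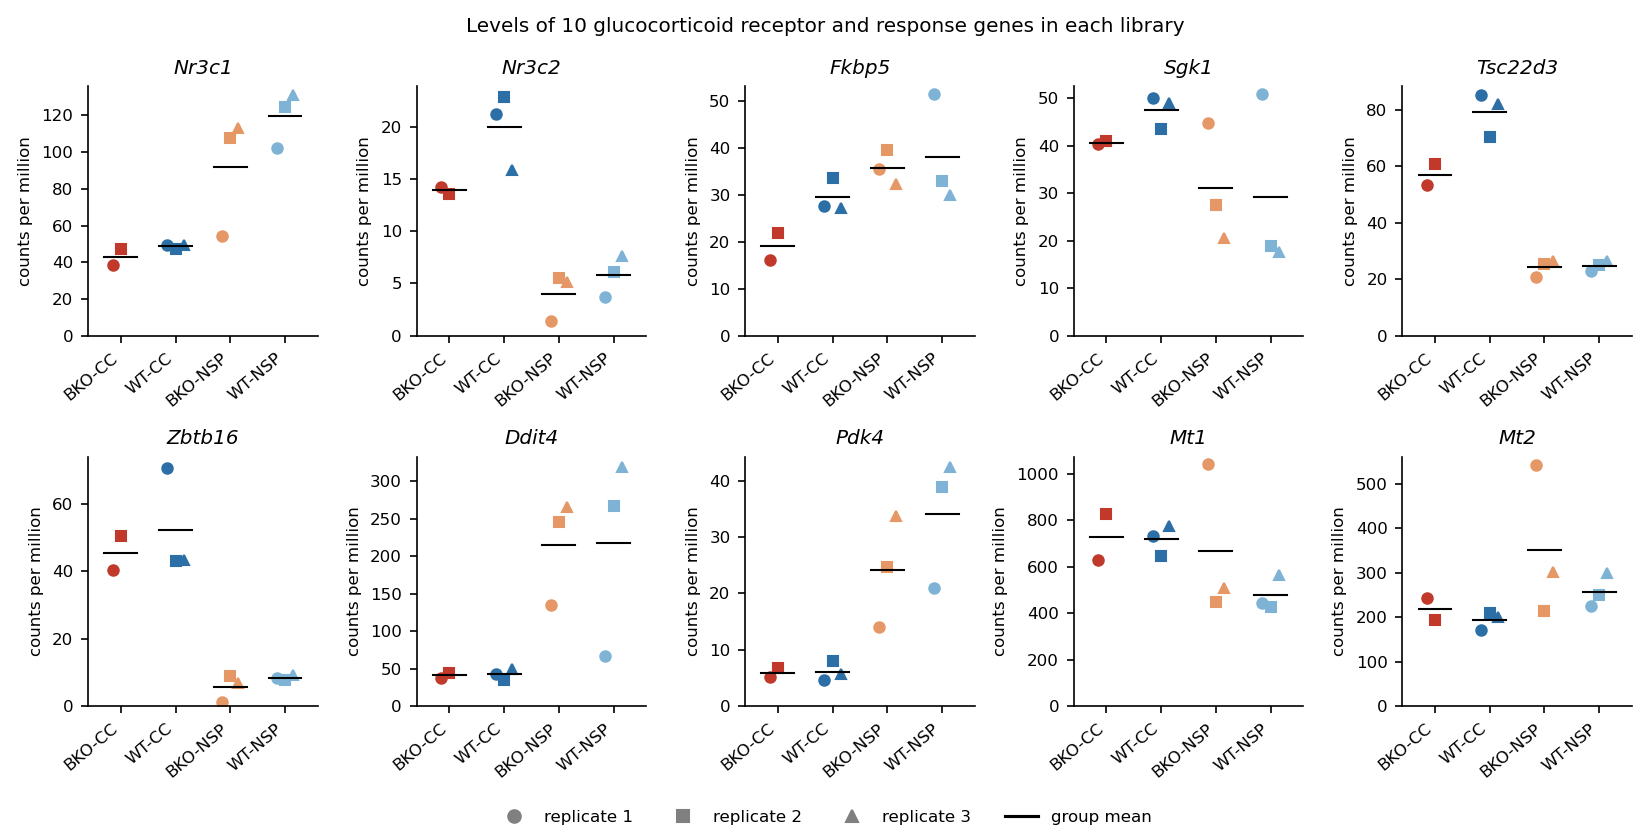
CPM of the 10 genes (vertical axes, linear from 0) in each of 11 libraries, by group (CC, callosum, and NSP, neurospheres), with symbols for replicate numbers and a bar at the group mean. Tsc22d3, Zbtb16 and Nr3c2 sit higher in callosum than in neurospheres, Nr3c1, Ddit4 and Pdk4 sit lower, and the first replicates of the neurosphere groups lie away from the others for several genes.

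The wild-type sources were compared first, since they set the level at which each gene stands. Of the 10 genes, 4 were higher and 4 lower in wild-type callosum than in wild-type neurospheres at an adjusted p under 0.05, and Sgk1 and Fkbp5 did not pass. Most genes differed between these sources: 85.8% of 14733 genes tested passed, 42.0% higher and 43.8% lower in callosum, so the share among the 10 is near the background. In bulk RNA, fewer cells of a type and less RNA per cell cannot be told apart. The fitted difference also varied with transcript length over all genes, with a median log2 fold change of 0.47 for transcripts up to 1000 bases and -0.49 for those over 5000 bases.

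The receptor genes differed in opposite directions. Nr3c1 (chr18:39410545-39519421) stood at 49.6, 47.4 and 49.3 CPM in wild-type callosum, against 102, 124 and 131 CPM in wild-type neurospheres. The groups did not overlap, and callosum was 2.42-fold lower (log2 fold change -1.28 ± 0.12, SE, edgeR adjusted p = 3.99e-06). Nr3c2 had 21.3, 22.8 and 15.9 CPM in wild-type callosum and 3.67, 6.15 and 7.68 CPM in wild-type neurospheres. Here every callosum library lay above every neurosphere library, a 3.46-fold difference (1.79 ± 0.26, edgeR adjusted p = 0.000127). Both transcripts are long, 6436 bases for Nr3c1 and 5916 bases for Nr3c2, in a length class whose median was negative. Per transcript length the glucocorticoid receptor was the more abundant in all 11 libraries, at 20.6 to 20.7 TPM (the same kind of scale, per transcript length) in wild-type callosum against 7.21 to 10.9 TPM for Nr3c2, and at 67.2 to 83.2 TPM in wild-type neurospheres against 2.62 to 5.29 TPM.

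The ratio of the receptors inside a library does not depend on how libraries are scaled to each other. Counts of Nr3c1 over Nr3c2 stood at 2.07 to 3.11 in wild-type callosum and at 17.1 to 27.9 in wild-type neurospheres, 8.63-fold apart by mean log2 ratio (exact permutation test, two-sided, p = 0.1, the smallest that 3 against 3 allow). BKO libraries fell on the same sides, with 2.72 and 3.46 in callosum and 19.4 to 38.5 in neurospheres. The highest value belongs to BKO neurosphere replicate 1, with 32 counts of Nr3c2.

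**Figure D2:**
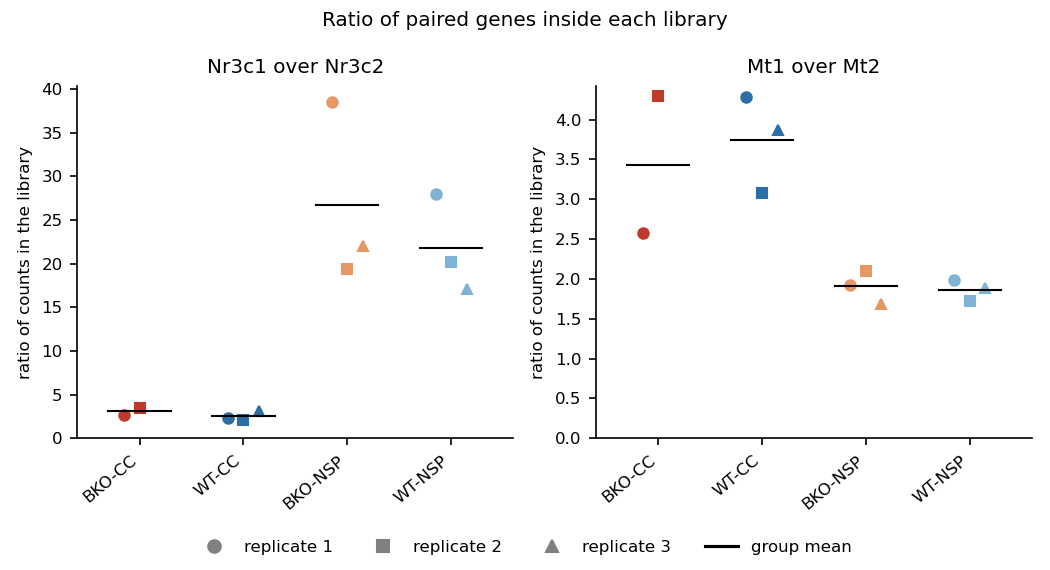
Ratio of raw counts inside each library for Nr3c1 over Nr3c2 (left) and Mt1 over Mt2 (right), linear axes from 0, with a bar at the group mean. The receptor ratio is 2.07 to 3.46 in the 5 callosum libraries and 17.1 to 38.5 in the 6 neurosphere libraries, and the metallothionein ratio 2.58 to 4.29 and 1.69 to 2.11.

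Among the response genes that were higher in wild-type callosum, Zbtb16 differed most. It stood at 70.6, 43.0 and 43.4 CPM in wild-type callosum and 8.27, 7.68 and 9.32 CPM in wild-type neurospheres, 6.26-fold apart (2.65 ± 0.21, edgeR adjusted p = 1.69e-06). Wild-type callosum replicate 1 was well above the other callosum libraries for this gene. Tsc22d3, the GILZ gene, had 85.3, 70.3 and 82.1 CPM in wild-type callosum, against 22.8, 25.1 and 26.4 CPM in wild-type neurospheres. That is 3.23-fold with tight groups on both sides (1.69 ± 0.12, edgeR adjusted p = 6.54e-07).

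The metabolic responders stood the other way. Ddit4 had 42.9, 35.6 and 50.1 CPM in wild-type callosum and 67.2, 268 and 319 CPM in wild-type neurospheres, 5.03-fold lower in callosum (-2.33 ± 0.47, edgeR adjusted p = 0.00112). The groups did not overlap, though neurosphere replicate 1 lay far below replicates 2 and 3. For Pdk4 the values were 4.73, 7.99 and 5.68 CPM in wild-type callosum, against 21.1, 39.0 and 42.4 CPM in wild-type neurospheres. Callosum was 5.50-fold lower for this kinase of glucose oxidation (-2.46 ± 0.29, edgeR adjusted p = 2.86e-05).

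Sgk1 and Fkbp5 hung on single libraries. Sgk1 had 50.05, 43.7 and 49.0 CPM in wild-type callosum and 51.0, 18.8 and 17.6 CPM in wild-type neurospheres. Neurosphere replicate 1 alone reached the callosum level, and the difference did not pass (0.72 ± 0.36, edgeR adjusted p = 0.0868). Without that library it passed at 1.38 (edgeR adjusted p = 9.86e-07), and it also passed with DESeq2 (0.0444). Fkbp5 stood at 27.7, 33.6 and 27.2 CPM in wild-type callosum and 51.4, 32.9 and 29.9 CPM in wild-type neurospheres, at -0.35 ± 0.20 (edgeR adjusted p = 0.13). It passed when neurosphere replicate 3 was left out (-0.52, edgeR adjusted p = 0.0342).

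The counts of the metallothionein genes, though side by side on chromosome 8, differed in opposite directions between the sources. Mt1 stood at 731, 646 and 776 CPM in wild-type callosum, against 446, 429 and 564 CPM in wild-type neurospheres (0.60 ± 0.14, edgeR adjusted p = 0.00235). Mt2 had 171, 210.3 and 200.3 CPM in wild-type callosum and 225, 249 and 298 CPM in wild-type neurospheres (-0.40 ± 0.13, edgeR adjusted p = 0.0184). Neither pair of groups overlapped. Within libraries, Mt1 over Mt2 was 3.07 to 4.28 in wild-type callosum and 1.72 to 1.98 in wild-type neurospheres, 1.99-fold apart by mean log2 ratio (exact permutation test, two-sided, p = 0.1, the smallest possible). BKO libraries gave 2.58 and 4.29 in callosum and 1.69 to 2.11 in neurospheres, so no callosum library reached down to a neurosphere library. The count of Mt2 is limited by the sequence it shares with Gm45774, described above. Reads classed as ambiguous took at least 1.17% of each library of callosum, but at most 0.977% of each library of neurospheres. What part these limits have in the Mt2 difference and in the ratio was not tested. The median log2 fold change was 0.42 in the length class of Mt1, 1000 to 2000 bases, and 0.47 in that of Mt2, up to 1000 bases. In the single model of 11 libraries the calls of Mt1 (edgeR adjusted p = 0.0671) and Mt2 (0.185) ended, and that of Mt2 also ended without neurosphere replicate 3 (0.0588) or callosum replicate 1 (0.0723).

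Other parts of the pathway were read from lists of known genes, and their counts stand beside the 85.8% of all genes that differed between the sources. Of 25 tested response genes outside the 10, 13 were higher and 6 lower in wild-type callosum. Fam107a, a stress-induced actin-binding protein gene, stood 8.16 ± 0.36 (SE) higher on the log2 scale and Arl4d, which encodes a small GTPase, 3.41 ± 0.23. At the other end, the cell cycle inhibitor gene Cdkn1a was at -5.07 ± 0.21 and Fbxo32, which encodes a ubiquitin ligase subunit of muscle wasting, at -1.68 ± 0.33. Of 14 chaperones and co-chaperones of the receptor, 6 were higher and 6 lower, with Cdc37 (1.51 ± 0.12) and Dnajb1 (0.93 ± 0.11) at the top and the HSP90 partners Chordc1 (-3.12 ± 0.16) and Ppid (-2.22 ± 0.14) at the bottom. Among 12 coregulators 5 were higher and 5 lower. The methyltransferase gene Carm1 (1.16 ± 0.11) led, and the Mediator subunit gene Med1 (-1.63 ± 0.09) and the deacetylase gene Hdac3 (-0.91 ± 0.10) came last.

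Of 8 tested genes that set how much steroid a cell meets, 5 were higher and 2 lower in wild-type callosum, near the share over all genes. Among the higher was Hsd11b1, whose product 11 beta-hydroxysteroid dehydrogenase type 1 regenerates active glucocorticoid from its inert form (3.49 ± 0.31). The efflux pump gene Abcb1a, a marker of brain endothelium, stood at 12.9 ± 3.39 CPM in wild-type callosum and 0.105 ± 0.105 CPM in wild-type neurospheres (SD, n = 3 each), which is near the floor of 3 counts. Its paralogue Abcb1b was lower in callosum at -2.93 ± 0.23, as was Srd5a3 at -1.32 ± 0.14. The 9 endothelial markers summed to 170 to 261 CPM in callosum and to 5.2 to 11.9 CPM in neurospheres, where 2 to 4 of the 9 were at 0. The part of endothelial RNA in the Abcb1a difference was not tested.

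In the list of metallothioneins and metal handling, 4 of 11 tested were higher and 7 lower in wild-type callosum. Mt3, the brain-enriched metallothionein, was higher at 1.81 ± 0.11, and Slc30a3, the zinc carrier of synaptic vesicles, averaged 174 ± 66.1 CPM in wild-type callosum against 0.0751 ± 0.0942 CPM in wild-type neurospheres (SD, n = 3 each), under the floor of 3 counts. The zinc transporter genes Slc30a4 (-2.59 ± 0.13) and Slc39a1 (-1.9995 ± 0.11) were lowest. Of 14 paralogues of the 10 genes, 9 were higher and 5 lower. Sgk2 (4.25 ± 0.32) and the progesterone receptor gene Pgr, at 24.7 ± 5.74 CPM in wild-type callosum and 0.165 ± 0.0697 CPM in wild-type neurospheres (SD, n = 3 each), stood highest, and Ddit4l (-5.39 ± 0.21) and Pdk1 (-2.91 ± 0.13) lowest. Ddit4 and Ddit4l both encode brakes on mTORC1. Of 8 tested genes of the mTORC1 brake list, 4 were lower, led by the stress-induced Sesn2 (-2.60 ± 0.13) and Sesn3 (-1.77 ± 0.15). A further 3, including Tsc2 (1.89 ± 0.11) and Deptor (1.36 ± 0.17), were higher. These shares are near those over all genes, 43.8% lower and 42.0% higher.

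Of 12 genes of fatty acid oxidation, the state in which Pdk4 acts, 7 were lower and 4 higher in wild-type callosum. The dehydrogenase gene Acadl (-3.84 ± 0.14) and the coactivator gene Ppargc1a (-2.88 ± 0.19) were lowest, and Angptl4 (2.39 ± 0.37), which encodes an inhibitor of lipoprotein lipase, was among the higher genes. Of 9 substrates and regulators of SGK1, 5 were higher and 1 lower. Scnn1a, a sodium channel subunit gene, stood at 2.37 ± 0.32 and Slc9a3r2, a scaffold of sodium exchange, at 2.08 ± 0.16, and Rictor, a subunit of the mTORC2 complex that activates SGK1, at -2.30 ± 0.20.

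The comparison of the genotypes in callosum asked whether loss of Bmal1 altered these genes in tissue. None of the 10 passed in BKO callosum against wild-type callosum by edgeR, where 129 of 14198 genes did (0.909%), and none passed with DESeq2 or in any other setting tried. At an unadjusted p under 0.05 there were 3 of the 10, all lower, beside 13.9% of all genes. The libraries of the genotypes did not overlap, with BKO lower, for 5 of the 10, Nr3c1, Nr3c2, Fkbp5, Sgk1 and Tsc22d3, beside 18.7% of all genes tested. No gene of the 10 was higher without overlap, beside 13.7%. The median log2 fold change of the 10 was -0.18 and that of all genes -0.01. Since the 10 were chosen with earlier results of these data known, these shares describe them and are no test.

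Fkbp5, the feedback co-chaperone, had 16.1 and 21.9 CPM in BKO callosum, against 27.7, 33.6 and 27.2 CPM in wild-type callosum. Both BKO libraries lay below all wild-type libraries, at a log2 fold change of -0.62 ± 0.17 (SE, unadjusted p = 0.0049, edgeR adjusted p = 0.167). Over all settings the value stayed between -0.41 and -0.85, with the lowest adjusted p 0.0739. Tsc22d3 had 53.4 and 60.7 CPM in BKO callosum and 85.3, 70.3 and 82.1 CPM in wild-type callosum. The genotypes again did not overlap, and the gene again did not pass (-0.46 ± 0.12, unadjusted p = 0.00414, edgeR adjusted p = 0.152).

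The mineralocorticoid receptor gene Nr3c2 stood at 14.2 and 13.6 CPM in BKO callosum, against 21.3, 22.8 and 15.9 CPM in wild-type callosum (-0.51 ± 0.18, unadjusted p = 0.0187, edgeR adjusted p = 0.261). Wild-type replicate 3 lay close to the BKO libraries. Nr3c1, the glucocorticoid receptor gene, had 38.7 and 47.0 CPM in BKO callosum and 49.6, 47.4 and 49.3 CPM in wild-type callosum (-0.17 ± 0.12, edgeR adjusted p = 0.53). Here 1 BKO library nearly touched the lowest wild-type library, and without BKO replicate 1 the value was -0.04. Sgk1 was at 40.3 and 41.1 CPM in BKO callosum, against 50.05, 43.7 and 49.0 CPM in wild-type callosum (-0.21 ± 0.11, edgeR adjusted p = 0.433).

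For the other 5 genes the genotypes overlapped. Zbtb16 had 40.5 and 50.5 CPM in BKO callosum and 70.6, 43.0 and 43.4 CPM in wild-type callosum (-0.19 ± 0.23), the spread being mostly that of wild-type replicate 1. Ddit4 at -0.05 ± 0.15, Pdk4 at -0.03 ± 0.26 and Mt1 at 0.03 ± 0.14 had values smaller than their errors. Mt2 stood at 244 and 193 CPM in BKO callosum, against 171, 210.3 and 200.3 CPM in wild-type callosum (0.19 ± 0.14). Over all genes the median genotype difference ran with transcript length, at 0.16 up to 1000 bases, the class of Mt2, and 0.08 for 1000 to 2000 bases, the class of Mt1 and Ddit4. It was 0.02 for 2000 to 3000 bases, where Tsc22d3 lies, -0.02 for 3000 to 5000 bases, where Fkbp5 lies, and -0.07 above. The value of Mt2 is thus about that of its length class.

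**Figure D3:**
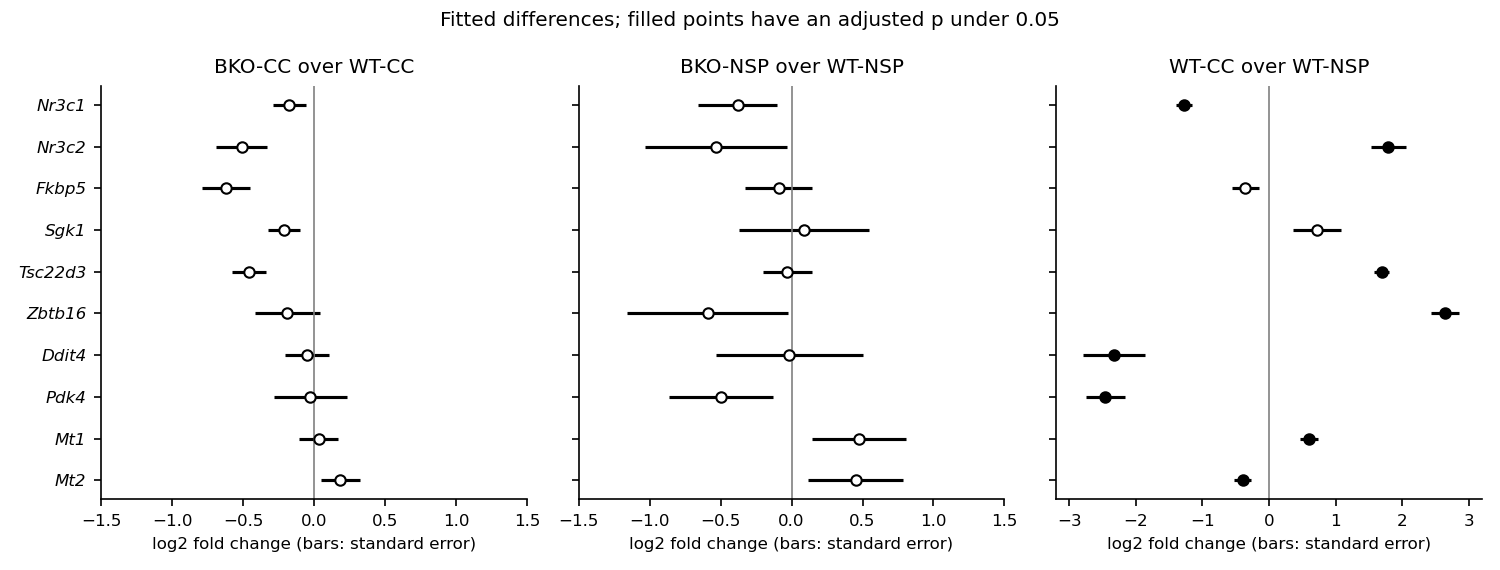
Log2 fold changes of the 10 genes with standard errors as bars for BKO over wild type in callosum (left), BKO over wild type in neurospheres (middle) and wild-type callosum over wild-type neurospheres (right, wider axis). Open points did not pass. In callosum Fkbp5, Nr3c2 and Tsc22d3 lie farthest below 0, at -0.62, -0.51 and -0.46, and in neurospheres the bars are wider.

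Around the receptor, 5 genes of the pathway lists passed between the genotypes in callosum, 1 of 8 tested for steroid metabolism and transport, 3 of 25 response genes and 1 of 11 for metal handling, beside 0.909% of all genes. The 6 other lists held none. All lists were chosen with earlier results of these data known, so these shares and those below describe the lists and are no test of enrichment. The largest difference was that of Hsd11b1 (chr1:193221640-193264045). It had 10 and 8 counts in BKO callosum, against 52, 60 and 65 counts in wild-type callosum, or 0.705 and 0.560 CPM against 3.61, 4.03 and 4.50 CPM. Hsd11b1 therefore fell by 2.65 ± 0.31 (SE) on the log2 scale (edgeR adjusted p = 0.00597), 6.27-fold, with BKO levels above the floor of 3 counts. Its call held with DESeq2, with other scaling and in the single model of 11 libraries (edgeR adjusted p = 0.0139), and it ended without wild-type replicate 3 (0.0634) or BKO replicate 1 (0.0518) at values of -2.57 and -2.82. The other 7 tested genes of steroid metabolism and transport did not pass, among them H6pd, which supplies the enzyme's cofactor, at 0.06 ± 0.16. In neurospheres Hsd11b1 had 4 to 10 counts per library and was not tested between the genotypes there.

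Of 25 tested response genes outside the 10, 2 fell and 1 rose in BKO callosum. Hif3a, which encodes a hypoxia-inducible factor subunit that glucocorticoids induce, stood at 4.58 and 5.39 CPM in BKO callosum, against 21.1, 12.2 and 13.2 CPM in wild-type callosum, and fell by 1.62 ± 0.27 (edgeR adjusted p = 0.0329). Fam107a had 349 and 407 CPM in BKO callosum and 623, 601 and 557 CPM in wild-type callosum, and fell by 0.64 ± 0.11 (edgeR adjusted p = 0.0393). Cdkn1a moved the other way, with 47.3 and 72.2 CPM in BKO callosum against 28.2, 30.6 and 27.4 CPM in wild-type callosum (1.07 ± 0.17, edgeR adjusted p = 0.0245). Part of its sequence, 10.5% of 50-base stretches, is shared with a gene of the opposite strand. All 3 were separate between the genotypes, and Cdkn1a is also a target of the p53 pathway.

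Over the whole list of 25, 8 genes had an unadjusted p under 0.05, 7 of them lower, beside the 13.9% of all genes given above, and the median was -0.14. BKO libraries lay below all wild-type libraries for 10 of the 25, beside 18.7% of all genes, and above them for 2, beside 13.7%. Among genes that did not pass and were picked for mention after their values were seen, the phagocytosis receptor gene Mertk stood at -0.70 ± 0.14 (edgeR adjusted p = 0.061), Sult1a1 at -1.53 ± 0.31 (0.0726), the lipid droplet gene Plin4 at -1.30 ± 0.27 (0.0765) and the transcription factor gene Klf15 at -0.41 ± 0.12 (0.203). Other genes that glucocorticoids induce in many tissues, also picked after their values were seen, stood near 0, such as Klf9 at 0.06 ± 0.12, Per1 at -0.01 ± 0.15, Dusp1 at 0.03 ± 0.28 and Nfkbia at 0.01 ± 0.17. The list thus did not move as one.

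**Figure D4:**
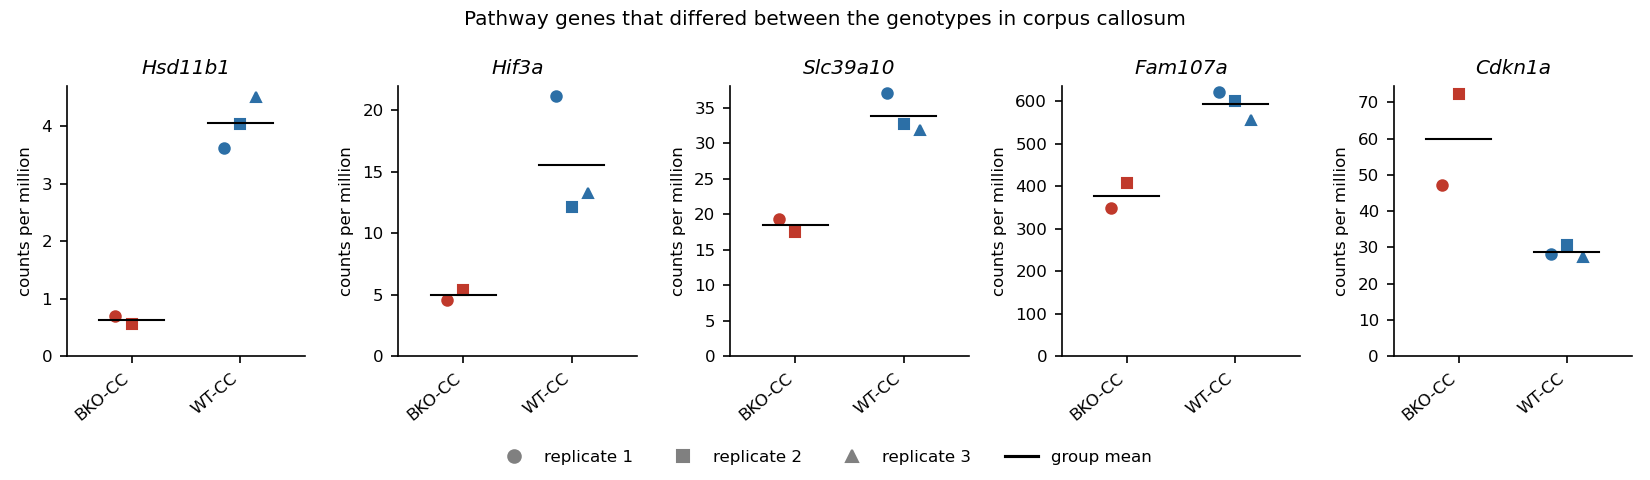
CPM in each callosum library (linear axes from 0) for the 5 genes of the pathway lists that passed between genotypes, with a bar at the group mean. Hsd11b1, Hif3a, Slc39a10 and Fam107a lie lower in both BKO libraries than in all 3 wild-type libraries, and Cdkn1a lies higher.

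In the metal list, 1 of 11 tested genes passed. Slc39a10, a zinc importer gene, had 19.4 and 17.5 CPM in BKO callosum, against 37.1, 32.7 and 31.9 CPM in wild-type callosum, and fell by 0.86 ± 0.13 (edgeR adjusted p = 0.0205). Mt3 stood at 1188 and 856 CPM in BKO callosum and 591, 672 and 661 CPM in wild-type callosum, without overlap, but did not pass (0.69 ± 0.15, edgeR adjusted p = 0.08). Mt1 and Mt2 did not differ beyond their spread, as above. None of 14 chaperones, 12 coregulators, 14 paralogues, 9 SGK1 substrates and regulators, 8 mTORC1 brake genes or 12 genes of fatty acid oxidation passed. In the last list 6 of 12 genes had an unadjusted p under 0.05, 5 of them lower and 1 higher, beside 13.9% of all genes. The median was -0.34, with Acadl, named after its value was seen, at -0.70 ± 0.16.

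These calls rest on few libraries. Those of Fam107a and Slc39a10 were lost on leaving out any single callosum library (edgeR adjusted p between 0.0519 and 0.275, and between 0.0529 and 0.118). Cdkn1a lost its call without any 1 wild-type library (0.0595 to 0.186), and Hif3a without wild-type replicate 3 (0.118) or either BKO library (0.252 and 0.0848). In the single model of 11 libraries none of these 4 passed. Marker sums moved with genotype as well. The 10 striatal markers summed to 862 and 1126 CPM in BKO callosum, against 958, 3133 and 1726 CPM in wild-type callosum, 9 choroid plexus markers to 15.9 and 12.5 CPM against 25.0, 49.98 and 187 CPM, and 11 astrocyte markers to 4717 and 5077 CPM against 3392, 3464 and 3202 CPM. The higher astrocyte sum was that of Gfap, an intermediate filament gene, at 1927 ± 70.4 CPM in BKO callosum (SD, n = 2) and 427 ± 68.0 CPM in wild-type callosum (SD, n = 3). Of the 11 astrocyte markers 5 had positive and 6 negative values, with a median of -0.05, and Aldh1l1 fell by 0.55 ± 0.10 (edgeR adjusted p = 0.0491). Wild-type replicate 1, with a striatal sum of 958 CPM, had 3.61 CPM of Hsd11b1, 21.1 CPM of Hif3a, 37.1 CPM of Slc39a10 and 623 CPM of Fam107a. Hsd11b1, at 3.61, 4.03 and 4.50 CPM in wild type and 0.705 and 0.560 CPM in BKO, ranked as the choroid plexus sums did. Hif3a, Slc39a10 and Fam107a, highest in wild-type replicate 1, did not. The part of striatal, choroid plexus and astrocyte RNA in these differences was not tested.

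In neurospheres none of the 10 genes passed between BKO and wild type, by edgeR, DESeq2 or any other setting tried. Only 1 of 13968 genes passed by edgeR (0.00716%). None of the 10 reached an unadjusted p under 0.05, beside 3.02% of all genes tested, and none separated the genotypes, beside 5.74% of genes separated with BKO lower and 6.28% with BKO higher. The standard errors of the 10 genes ran from 0.17 to 0.57 on the log2 scale here, against 0.11 to 0.26 in callosum.

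Nr3c1 had 54.6, 108 and 113 CPM in BKO neurospheres, against 102, 124 and 131 CPM in wild-type neurospheres (-0.38 ± 0.28, edgeR adjusted p = 0.798). Nr3c2 stood at 1.42, 5.54 and 5.13 CPM in BKO neurospheres and 3.67, 6.15 and 7.68 CPM in wild-type neurospheres (-0.53 ± 0.50). For Zbtb16 the values were 1.24, 8.82 and 6.75 CPM in BKO neurospheres, against 8.27, 7.68 and 9.32 CPM in wild-type neurospheres (-0.59 ± 0.57). In all 3 genes the first BKO library lay far below the other libraries, and the remaining libraries overlapped. Without BKO replicate 1 the log2 fold changes were -0.11 for Nr3c1, -0.13 for Nr3c2 and -0.12 for Zbtb16.

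Fkbp5 and Tsc22d3, the genes with the lowest p of the 10 in callosum, had values smaller than their errors in neurospheres. Fkbp5 had 35.4, 39.6 and 32.2 CPM in BKO neurospheres and 51.4, 32.9 and 29.9 CPM in wild-type neurospheres (-0.09 ± 0.23). Tsc22d3 had 20.8, 25.5 and 26.6 CPM in BKO neurospheres, against 22.8, 25.1 and 26.4 CPM in wild-type neurospheres (-0.03 ± 0.17). Its error was the smallest of the 10 genes here. Sgk1 stood at 44.9, 27.6 and 20.7 CPM in BKO neurospheres and 51.0, 18.8 and 17.6 CPM in wild-type neurospheres (0.09 ± 0.46), highest in the first library of each genotype.

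Pdk4 had 14.1, 24.7 and 33.7 CPM in BKO neurospheres, against 21.1, 39.0 and 42.4 CPM in wild-type neurospheres (-0.50 ± 0.36), and Ddit4 135, 245 and 266 CPM against 67.2, 268 and 319 CPM (-0.01 ± 0.52). Both genes were lowest in the first library of each genotype. Mt1 stood at 1043, 448 and 507 CPM in BKO neurospheres and 446, 429 and 564 CPM in wild-type neurospheres (0.47 ± 0.33), and Mt2 at 542, 213 and 301 CPM against 225, 249 and 298 CPM (0.45 ± 0.33). The positive values of both metallothionein genes came from BKO replicate 1 and were -0.01 for each without it. Of 24 tested response genes outside the 10 none passed, the smallest p belonging to the clock gene Per1 (-0.71 ± 0.31, unadjusted p = 0.0515) and to Nfkbia, an inhibitor of NF-kappaB (0.62 ± 0.28, unadjusted p = 0.0553). Nfkbia had 41.0 CPM in BKO replicate 1, beside 20.6 and 22.2 CPM in the other BKO libraries and 17.6 to 18.7 CPM in wild-type neurospheres. Its value thus came largely from that library. No gene of the other pathway lists passed either.

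The first neurosphere library of each genotype departed from its group for several of the 10 genes. In wild-type replicate 1, Ddit4 lay 2.11 below the mean of the other libraries of its group and Sgk1 1.46 above it on the log2 scale. With 0.5 CPM added to each value, the highest Ddit4 level in wild-type neurospheres was 4.71 times the lowest, a spread that 0.072% of all genes reach, and for Sgk1 the highest was 2.84 times the lowest, which 0.759% reach. Fkbp5 was also high in that library (0.70) and Nr3c2 (-0.82) and Pdk4 (-0.93) low, whereas genes of like length showed median deviations between -0.07 and 0.04 there. Tsc22d3 (-0.17) and Zbtb16 (-0.03) lay near the mean of the other wild-type neurosphere libraries in it.

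In BKO replicate 1 the deviations followed transcript length. Over all genes their median was 0.81 for transcripts up to 1000 bases and -0.74 for those over 5000 bases. Mt1 at 1.13 and Mt2 at 1.10 stood beside medians of 0.74 and 0.83 for the 500 genes nearest in length, and Nr3c1 at -1.01 beside -0.69. Zbtb16 at -2.24 lay away from the median of genes of like length (-0.46). So did Nr3c2 at -1.61 (-0.64), Ddit4 at -0.91 (0.51), Pdk4 at -1.01 (-0.01) and Sgk1 at 0.90 (0.09). Of all genes, 0.994% deviated as far in this library as Zbtb16 and 3.11% as far as Nr3c2. The shares were 13.2% for Pdk4, 17.4% for Ddit4 and 18.3% for Sgk1, so deviations of that size were common there. Sgk1 was thus high and Ddit4, Pdk4 and Nr3c2 low in the first library of both genotypes. Fkbp5, at -0.01, lay at the mean of the other BKO neurosphere libraries in BKO replicate 1. When both first neurosphere libraries were left out, 255 genes passed between the genotypes, and still none of the 10.

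**Figure D5:**
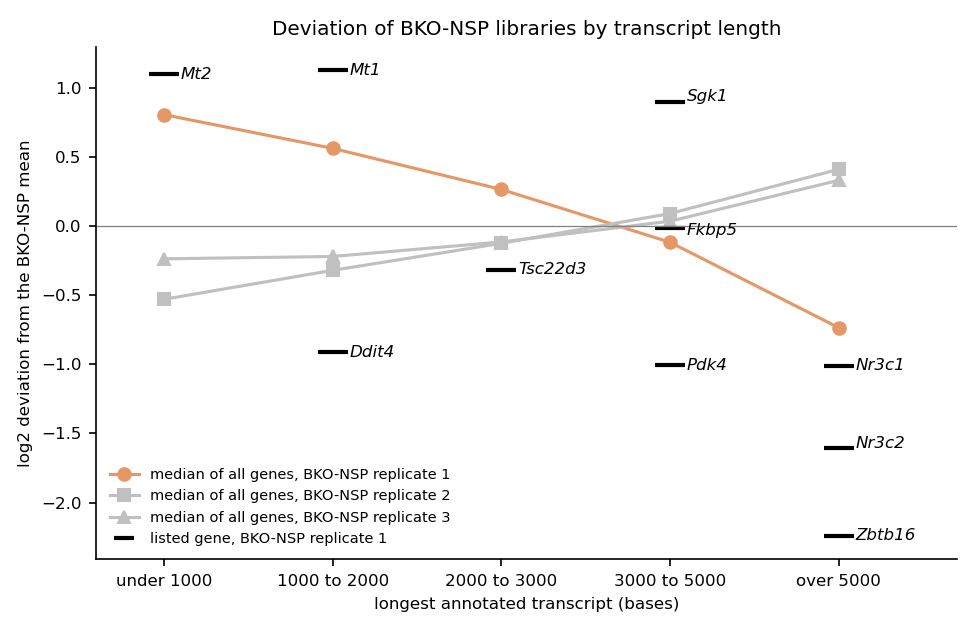
Log2 deviation from the mean of the other BKO neurosphere libraries (vertical axis) by length class of the longest annotated transcript (horizontal axis). Lines join the medians of all genes in each BKO library, and black bars mark the 10 genes in replicate 1. Its line falls from 0.81 to -0.74 with length, Mt1 and Mt2 sit above its short end, and Ddit4, Pdk4 and Zbtb16 lie below it and Sgk1 above it.

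Whether the genotype difference itself differed between callosum and neurospheres was tested in the model of 11 libraries. None of the 10 genes passed, where 2 of 15322 genes did (0.0131%), and none had an unadjusted p under 0.05, beside 4.28% of all genes. Tsc22d3 came nearest, at -0.45 ± 0.22 (callosum minus neurospheres, SE, unadjusted p = 0.0707, edgeR adjusted p = 0.999), followed by Fkbp5 at -0.54 ± 0.32 (unadjusted p = 0.12). A lower value in callosum alone is therefore not shown for either gene. Of the pathway genes called in callosum, Cdkn1a differed by 1.04 ± 0.30 (unadjusted p = 0.00496, edgeR adjusted p = 0.799) and did not pass. Hsd11b1, with 4 to 10 counts in each neurosphere library, differed by -2.31 ± 0.58 (unadjusted p = 0.00186, edgeR adjusted p = 0.58). It did not pass either, and its low neurosphere counts limit this value. Hif3a, at -1.62 in callosum and -0.74 ± 0.44 in neurospheres, and Slc39a10, at -0.86 in callosum and -0.43 ± 0.33 in neurospheres, had values of 1 sign in both sources. In neurospheres Slc39a10 had 49.3 CPM in BKO replicate 1, beside 123 and 128 CPM in the other BKO libraries. Wild-type neurospheres had 127 to 139 CPM, so its neurosphere value rests on BKO replicate 1.

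Across all 4 groups, the order of levels was set by source for most of the 10 genes. Nr3c1, Ddit4 and Pdk4 were highest in the neurosphere groups, and no neurosphere library of any of the 3 overlapped callosum. Nr3c2, Tsc22d3 and Zbtb16 were highest in the callosum groups, again with no overlap between sources. Within a source, neighbouring groups overlapped for these 6 genes except BKO and wild-type callosum for Nr3c1, Nr3c2 and Tsc22d3. For Mt1 and Mt2 every pair of neighbouring groups overlapped. For Sgk1 they overlapped except BKO and wild-type callosum, and for Fkbp5 likewise.

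The genes most alike in pattern were found from the root mean square difference of gene-centred log2 CPM over the 11 libraries, among 15322 genes. Nr3c1 was closest to Spg11, Akap10 and Rapgef6 (differences 0.06 to 0.09). Nr3c2 was closest to Trerf1, Arhgap32 and Bcorl1 (0.20 to 0.24), and Zbtb16 to Cit, Klhl3 and Mfsd4 (0.19 to 0.23). For Fkbp5 they were Ezr, Zscan22 and Ints7 (0.15 to 0.16), for Tsc22d3 Smg5, Cap2 and Arhgap10 (0.12 to 0.13) and for Sgk1 Jrk, Chst2 and 4930570G19Rik (0.15 to 0.19). Pdk4 was nearest to Chd7, Malt1 and Gfpt1 (0.17 to 0.19), Ddit4 to Dll1, Als2cl and Gem (0.30 to 0.33), Mt1 to Stra13, Coa6 and Imp3 (0.15 to 0.16) and Mt2 to H2-D1, Myeov2 and Zswim7 (0.13). None of the 10 was among the 3 closest genes of another. The nearest such pair was Ddit4 and Pdk4, at a difference of 0.47, where Pdk4 ranked 36 among the genes alike to Ddit4. These likenesses share the libraries and the large difference between sources, and are given as a description.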

How the data were processed

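The deposited files hold unstranded and stranded raw counts of reads per gene for each of 11 libraries, made by the authors from BGISEQ-500 reads of RNA selected by oligo dT or rRNA depletion, per the labels' protocols. STAR 2.7.1a and mm10 are named in the submitters' processing notes, and for the annotation behind the counts the sources used here name none. The first strand took 49.6% to 50.8% of stranded counts, so the unstranded counts were used. Genes were filtered with filterByExpr, scaled by TMM and tested with edgeR 4.0.16 (quasi-likelihood, robust, R 4.3.3), with Benjamini-Hochberg adjustment over all genes tested and a threshold of 0.05. Each comparison used only its own 2 groups, and the difference of genotype effects all 11 libraries. SE is the log2 fold change over the square root of F. CPM were computed from TMM-scaled library sizes, TPM from the longest GENCODE transcript (length matched for 95.8% of symbols), and deviations from log2 of CPM plus 0.5. With 3 counts as the floor, detection began at 0.152 to 0.172 CPM, for counting error only. This range was computed from library sizes before TMM scaling, so it is only approximate beside the scaled CPM given here. Simulated data with known changes were used to test the fits. Pathway genes named are those that passed between genotypes, and the 2 highest and 2 lowest per list between sources, of which some are not reported here. The members and lists were chosen with earlier results of these data known. Alternatives were RLE scaling, no filter, DESeq2 1.42.0, a replicate block, a single model of 11 libraries and leaving out each library. The protein comparison of Mt1 and Mt2 was not made.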

Additional observations from a re-analysis of the deposited data

How the results depend on the processing

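None of the 10 genes passed between genotypes in callosum or neurospheres under any setting, and 6 to 9 of them passed between sources. Counts over all genes moved more. In callosum the 129 calls became 224 with no filter, 322 by DESeq2 and 33 when all 11 libraries were fitted as 1 model, and 27 to 192 when 1 library was left out. In neurospheres the single call became 5 with no filter, 33 with DESeq2, 19 in the single model and 1 to 5 with 1 library left out. It became 255 without both first replicates, a setting chosen after seeing the data. For the difference of genotype effects the 2 calls became 37 with DESeq2 and 1 to 10 with 1 library left out.

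Whether replicate numbers pair the samples was not settled. Deviations from the group mean correlated at -0.0203 to 0.344 for same-numbered neurosphere libraries and at -0.423 to 0.342 for those with different numbers. In callosum same-numbered libraries gave 0.0188 to 0.0586. There the deviations of the 2 BKO libraries mirror each other, so these values cannot decide it. With the replicate block, 2 genes passed in neurospheres and 1 in the difference of effects. Ddit4 changed sign under the block, to 0.080 in callosum and 0.20 in neurospheres, as did, in the difference of effects, Nr3c2 (-0.011) and Fam107a (-0.023). The block also brought Sgk1 past the threshold between sources (0.89).

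Without both first neurosphere replicates, Fkbp5 stood at 0.19, Tsc22d3 at 0.013, Mt1 at -0.056 and Mt2 at -0.10. With 1 library left out at a time, values in callosum ranged from -0.34 to 0.10 for Zbtb16, -0.16 to 0.077 for Ddit4, -0.23 to 0.22 for Pdk4 and -0.16 to 0.22 for Mt1. In neurospheres the ranges were -0.25 to 0.19 for Fkbp5, -0.28 to 0.78 for Sgk1, -0.089 to 0.069 for Tsc22d3, -0.44 to 0.36 for Ddit4, -0.0069 to 0.69 for Mt1 and -0.0066 to 0.71 for Mt2. In the difference of effects they were -0.063 to 0.36 for Nr3c1, -0.38 to 0.30 for Nr3c2, -1.01 to 0.063 for Sgk1, -0.075 to 0.87 for Zbtb16, -0.43 to 0.38 for Ddit4, -0.70 to 0.037 for Mt1, -0.57 to 0.19 for Mt2 and -0.66 to 0.51 for Fam107a. These are values below or near their errors, and the cause was not tested. With 2 BKO callosum libraries, leaving out 1 assumes that the lone library varies like the others. Depth limits genes with few counts, such as Hsd11b1 with 10 or fewer in each BKO callosum library.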
